A study of Mus musculus with 6 samples.

Results

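The genes described here are 10 readouts and feedback inhibitors of FGF and ERK signalling, measured in the superior and inferior parts of the outflow tract of the mouse heart. They are the transcription factor genes Etv1, Etv4 and Etv5, the Sprouty genes Spry1, Spry2 and Spry4, the Sprouty-related genes Spred1 and Spred2, and the phosphatase genes Dusp4 and Dusp6. The genes were chosen by name, with earlier results of these data known. Every probe set that the platform annotation gives to 1 of them alone was used. This yielded 27 of 45037 probe sets for 9 of the 10 genes, among 18193 genes with a probe set of their own. Etv1 had no probe set of its own, since its 3 probe sets also name Gm5454, so it has no value here.

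The outflow tract is the tube through which blood leaves the embryonic heart. Per the labels, hearts of CD1 mouse embryos at embryonic day 10.5 were dissected into superior and inferior subdomains, without further treatment or genotype named. Pools 1, 6 and 7 of each region were each measured on 1 Affymetrix Mouse Genome 430 2.0 array, which makes 6 arrays. A pool held tissue of 6 littermate embryos by the sample labels and 7 dissected pieces by the series design text. The main p-values come from a fit paired by pool number and measure the spread of the region difference across pool numbers. Those without pairing measure the spread between the pools of a region. Whether different pools are different litters is not stated, so either spread may be partly technical. The tissue is a mixture of cells, and fewer cells of a type cannot be told apart from less RNA per cell.

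FGF ligands bind receptor tyrosine kinases and switch on the RAS, RAF, MEK and ERK kinases. Active ERK raises transcription of the PEA3 group of ETS factors, Etv1, Etv4 and Etv5, which carry the signal to further genes and serve as readouts of it. It also raises its own inhibitors. Sprouty and Spred proteins restrain the RAS to ERK cascade, and the DUSP phosphatases remove the phosphates that activate MAP kinases. In the heart, FGF8 and FGF10 of the second heart field, the progenitors that lengthen the outflow tract, act on the progenitors themselves and on neighbouring cells.

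The brightest probe set of each of the 9 measured genes had a lower mean in the superior pools (50.8% of genes did), by 0.09 to 1.06 on the log2(signal + 3.2) scale, but 0 of the 9 passed the test over all probe sets. Etv4 showed a 2.08-fold lower level in superior than in inferior pools, Dusp4 and Etv5 each 1.47-fold, and the other 6 genes 1.06-fold to 1.23-fold. The differences were taken within pool numbers with limma and adjusted by Benjamini-Hochberg over 22518 probe sets. This paired fit called 0.160% of all probe sets at an adjusted p threshold of 0.05, and 0 of the 19 member probe sets that were tested. Without pairing it called 0% of all probe sets and again 0 members. At an unadjusted p threshold of 0.05, 6 of the 19 member probe sets were lower in superior pools in the paired fit, against 6.00% of all probe sets, and 4 of 19 without pairing, against 1.74%.

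The direction was shared by many probe sets. Over all 27 member probe sets, bright or dim, 22 had a lower mean log2 value in superior pools, or 81.5%, against 55.0% of 45037. The 22 comprise the 19 that were bright enough to be tested, of which 12 were lower in every pool, against 19.0% of all tested probe sets. Of these 19, the dimmest Etv5 probe set reached the brightness limit only through its inferior arrays, so the 19 are no independent count of direction. In 6 of the 19 the 3 superior signals all lay below the 3 inferior signals, against 4.56% of all probe sets. By gene, 8 of 9 were lower in each pool, against 17.1% of 11195 genes, 5 of 9 had no overlap between regions, against 4.09%, and the median log2 difference was -0.30 where that of all genes was -0.00283. Taken pool by pool, the 9 genes had medians of -0.30, -0.33 and -0.25 for pools 1, 6 and 7. Probe sets of 1 gene share transcripts, and genes of 1 pathway are not independent, so these shares describe the arrays.

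**Figure D1:**
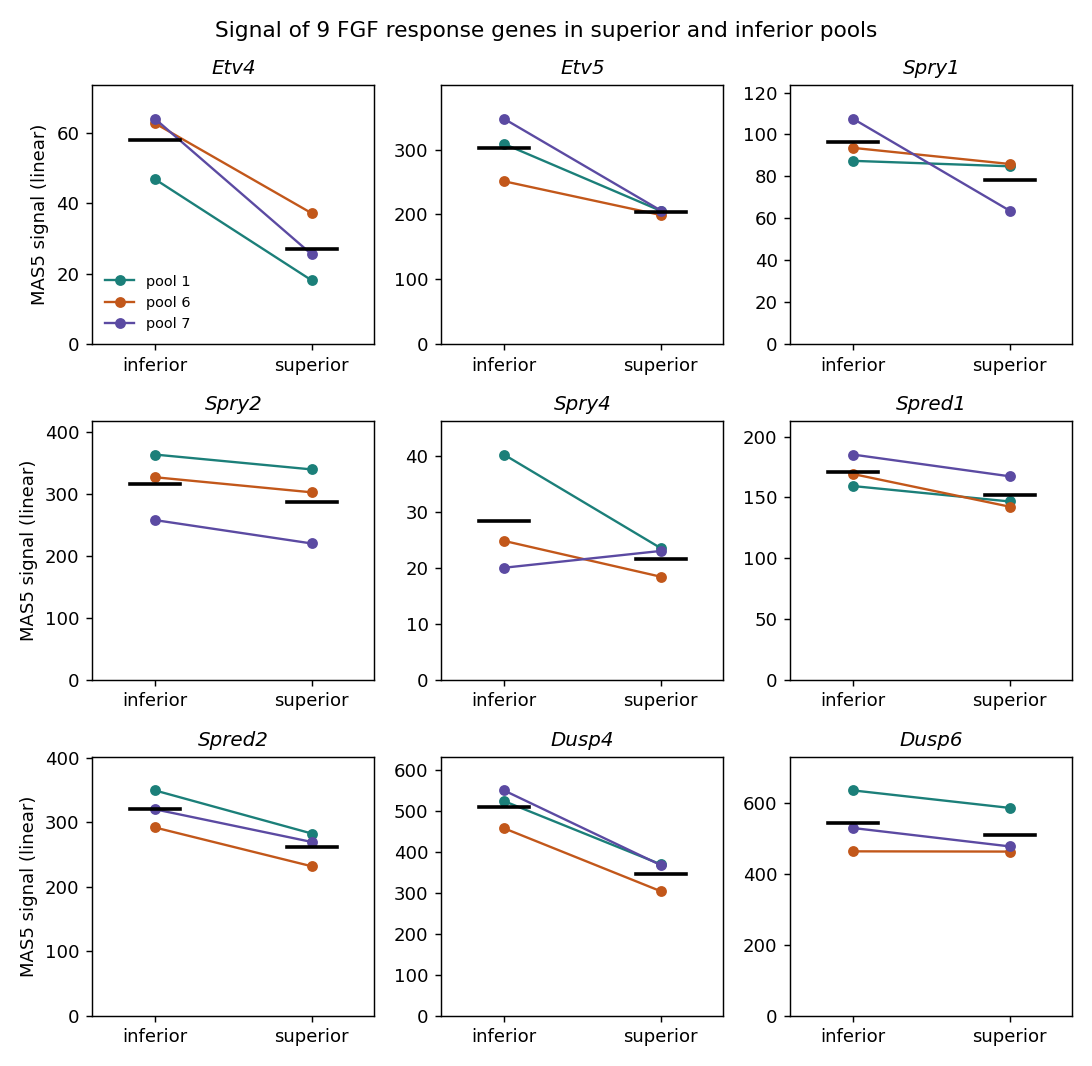
Linear MAS5 signal (vertical axis, scaled within each array by the authors) of the brightest probe set of 9 genes in inferior and superior pools. Points joined by a line are the arrays of 1 pool number, and black bars are means of 3 pools. Etv4, Etv5 and Dusp4 are lower in superior in all 3 pools with no overlap, at means of 26.9, 203.6 and 347.2 against 57.9, 302.7 and 510.8, while the lines of Dusp6 are nearly flat.

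Sequence upstream of the transcription start was looked up for the members in a RefSeq table of the mouse build GRCm38.p6, which gave 9 windows for 7 of the 10 genes. No window was obtained for Etv4, Spry4 and Dusp4. The chromosome of Spry4 was left out of the lookup for the members, so whether that table holds Spry4 was not tested. The 250 bases before each start were searched on both strands for the PEA3-type ETS motif AGGAAG, a second ETS core CCGGAA, the AP-1 site TGANTCA and the cAMP response site TGACGTCA, which are the recognition letters of factors that act at the end of ERK or related kinase signalling. The windows of Etv5, Spred2 and Dusp6 are shown, the first 2 because these genes had the smallest unadjusted p among those with a window, and Dusp6 because its difference was the smallest of all. They were chosen after the values were seen. Capitals mark AGGAAG or its reverse complement CTTCCT.
Etv5, outer start, chr16:22439571-22439820, minus strand: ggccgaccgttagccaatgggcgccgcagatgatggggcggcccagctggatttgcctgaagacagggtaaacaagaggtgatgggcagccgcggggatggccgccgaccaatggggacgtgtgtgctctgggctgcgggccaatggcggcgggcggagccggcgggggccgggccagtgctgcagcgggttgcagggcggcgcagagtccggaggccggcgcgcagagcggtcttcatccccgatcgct
Etv5, inner start, chr16:22438369-22438618, minus strand: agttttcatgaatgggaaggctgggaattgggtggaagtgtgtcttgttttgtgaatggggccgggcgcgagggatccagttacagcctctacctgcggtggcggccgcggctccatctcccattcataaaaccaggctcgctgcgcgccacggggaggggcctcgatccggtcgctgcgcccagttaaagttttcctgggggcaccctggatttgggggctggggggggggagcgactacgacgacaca
Spred2, chr11:19924192-19924441, plus strand: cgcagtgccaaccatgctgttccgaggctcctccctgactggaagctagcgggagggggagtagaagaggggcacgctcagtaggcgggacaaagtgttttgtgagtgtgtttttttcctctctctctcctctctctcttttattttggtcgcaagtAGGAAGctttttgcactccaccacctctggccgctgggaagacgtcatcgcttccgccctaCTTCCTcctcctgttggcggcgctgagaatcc
Dusp6, chr10:99262981-99263230, plus strand: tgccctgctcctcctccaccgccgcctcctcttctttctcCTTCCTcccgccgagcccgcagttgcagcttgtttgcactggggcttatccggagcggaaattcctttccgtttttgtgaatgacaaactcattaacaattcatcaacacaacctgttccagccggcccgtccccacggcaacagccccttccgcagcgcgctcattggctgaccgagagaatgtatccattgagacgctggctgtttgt
The Spred2 window holds the motif 2 times, from -93 to -88 and, on the opposite strand, from -32 to -27 relative to the start. Dusp6 holds it once, from -210 to -205, and neither Etv5 window holds it. Of the 9 member windows 3 had a match, or 33.3%, where 29.5% of 32851 windows of the same length did, with no chromosome left out of the latter. The other 3 motifs occurred in 0 of the 9 member windows and in 12.0%, 6.75% and 1.55% of all windows, in the order named. A match is only a run of letters and says nothing of binding.

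Etv4 encodes an ETS activator that is switched on close to FGF sources in many embryonic tissues. Its brighter probe set, 1423232_at, had signals of 18.1, 37.2 and 25.5 in superior pools 1, 6 and 7 and of 46.9, 62.8 and 64.1 in the inferior pools. The highest superior array lay below the lowest inferior array, and pool 1 was the lowest of its region in both. The mean was 26.9 ± 9.63 in superior and 57.9 ± 9.58 in inferior pools (SD, n = 3 each). The log2 difference was -1.06 ± 0.17 (SE of the paired fit; 95% interval -1.45 to -0.67), with adjusted p = 0.0790 in limma's paired fit and 0.9999 without pairing. Within pools it was -1.23, -0.71 and -1.23. The second Etv4 probe set was too dim to be tested and did not run one way, with signals of 5.5, 14.1 and 14.9 in superior against 16.9, 10.4 and 23.2 in inferior pools.

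Etv5, a close relative of Etv4 in the same ETS group, was brightest on probe set 1428142_at, at 205.6, 199.1 and 206.1 in superior and 309.0, 251.3 and 347.8 in inferior pools. The superior arrays lay close to each other, and the spread was in the inferior arrays. The means were 203.6 ± 3.91 and 302.7 ± 48.6, and the log2 difference was -0.55 ± 0.11 (95% interval -0.80 to -0.30, paired limma adjusted p = 0.145). Its other 2 probe sets, both dimmer, gave -0.31 ± 0.17 and -0.22 ± 0.25, and the average of all 3 was -0.36. The second was lower in superior in each pool, while the last was higher in superior in pool 6, with 20.1 against 15.0.

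Dusp4, a nuclear MAP kinase phosphatase, had 1 probe set, with signals of 369.7, 304.0 and 367.8 in superior and 524.3, 457.9 and 550.3 in inferior pools. Pool 6 was the lowest in both regions, and the step between regions was nearly the same in each pool, at -0.50, -0.59 and -0.58. The means were 347.2 ± 37.4 and 510.8 ± 47.7, a log2 difference of -0.55 ± 0.09 (95% interval -0.75 to -0.36, paired limma adjusted p = 0.0732, 0.9999 without pairing). Dusp6, a cytoplasmic phosphatase selective for ERK and widely used as an FGF readout, had signals of 585.6, 462.5 and 477.1 in superior and 635.0, 463.2 and 529.0 in inferior pools. These ranges overlapped, and in pool 6 the regions had nearly equal signals. Its log2 difference was -0.09 ± 0.09 with a 95% interval from -0.29 to 0.11 (paired limma adjusted p = 0.746). The interval of Dusp6 lies above that of Dusp4. The contrast between these genes was not tested.

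With pool 6 left out, 3 member genes passed in the paired fit. They were Etv4 (log2 -1.23, adjusted p = 0.0219), Etv5 (-0.66, 0.0255) and Dusp4 (-0.54, 0.0340). That fit called 1.03% of all probe sets, and 0.560% as lower in superior, in all 231 against 36 with the 3 pools together, from 1 residual degree of freedom. Without pool 1 their adjusted p was 0.416, 0.882 and 0.582, and without pool 7 it was 0.0769, 0.222 and 0.0683. Over all alternatives it ran up to 0.9999 for each of them. Their sign stayed negative in each, although several alternatives leave the difference itself unchanged.

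Spry1, the first of the Sprouty inhibitors measured, had 1 probe set. Its signals were 84.8, 85.9 and 63.6 in superior and 87.4, 93.6 and 107.5 in inferior pools, which do not overlap, though pools 1 and 6 differ by little. Most of its log2 difference of -0.30 ± 0.16 (paired limma adjusted p = 0.528) came from pool 7, at -0.73, against -0.04 in pool 1 and -0.12 in pool 6. Without pool 7 it was -0.08. Spry2, an inhibitor induced by many receptor tyrosine kinases, had signals of 339.8, 302.8 and 220.2 in superior and 363.8, 327.2 and 258.0 in inferior pools. Pool 1 was the highest and pool 7 the lowest in both regions, and within every pool the superior array was the lower one. The log2 difference was -0.14 ± 0.09 (95% interval -0.36 to 0.07, adjusted p = 0.605). The other Spry2 probe set was too dim to be tested.

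Spry4, a Sprouty gene often used as an FGF target, was dim on all 4 of its probe sets. Its brightest had signals of 23.5, 18.4 and 23.0 in superior and 40.2, 24.8 and 20.0 in inferior pools, a log2 difference of -0.30 ± 0.21 (adjusted p = 0.646). The regions overlapped, and pool 7 ran the other way at 0.18. The difference was -0.099 without pool 1, -0.54 without pool 7 and -0.57 with the tested Spry4 probe sets averaged. The second tested Spry4 probe set gave -0.83 ± 0.34 (adjusted p = 0.434), with -1.80 in pool 7 and 0.19 in pool 6, so the 2 probe sets disagreed on which pool showed the difference. Another was at 0.8, 0.8 and 3.6 in superior and 8.7, 5.3 and 9.0 in inferior pools, where a signal of 8.0 is the highest among 27 Bacillus control probe sets and stands for background. It was below that level on 4 of 6 arrays and was not tested.

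Spred1 and Spred2 encode membrane proteins that recruit neurofibromin to RAS. The main Spred2 probe set, 1434403_at, had signals of 282.5, 231.7 and 269.4 in superior and 349.4, 291.9 and 320.1 in inferior pools. The regions did not overlap, and the differences within pools were close, at -0.30, -0.33 and -0.25. The log2 difference was -0.29 ± 0.09 (95% interval -0.50 to -0.08), with adjusted p = 0.351. The 2 other tested Spred2 probe sets gave -0.02 ± 0.16 and -0.12 ± 0.17, each with 1 pool or more higher in superior. With all 3 averaged the gene's difference was -0.14.

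Spred1 was the member with most probe sets, 8 in all. Its brightest had signals of 146.7, 142.4 and 167.4 in superior and 159.4, 169.3 and 185.3 in inferior pools, a log2 difference of -0.17 ± 0.10 (95% interval -0.40 to 0.06, adjusted p = 0.586). Every pool was lower in superior, although the regions overlapped across pools. The 6 tested Spred1 probe sets ranged from -0.40 ± 0.16 to -0.09 ± 0.21, so each had a lower mean in superior pools. The largest of these differences had an adjusted p of 0.423.

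**Figure D2:**
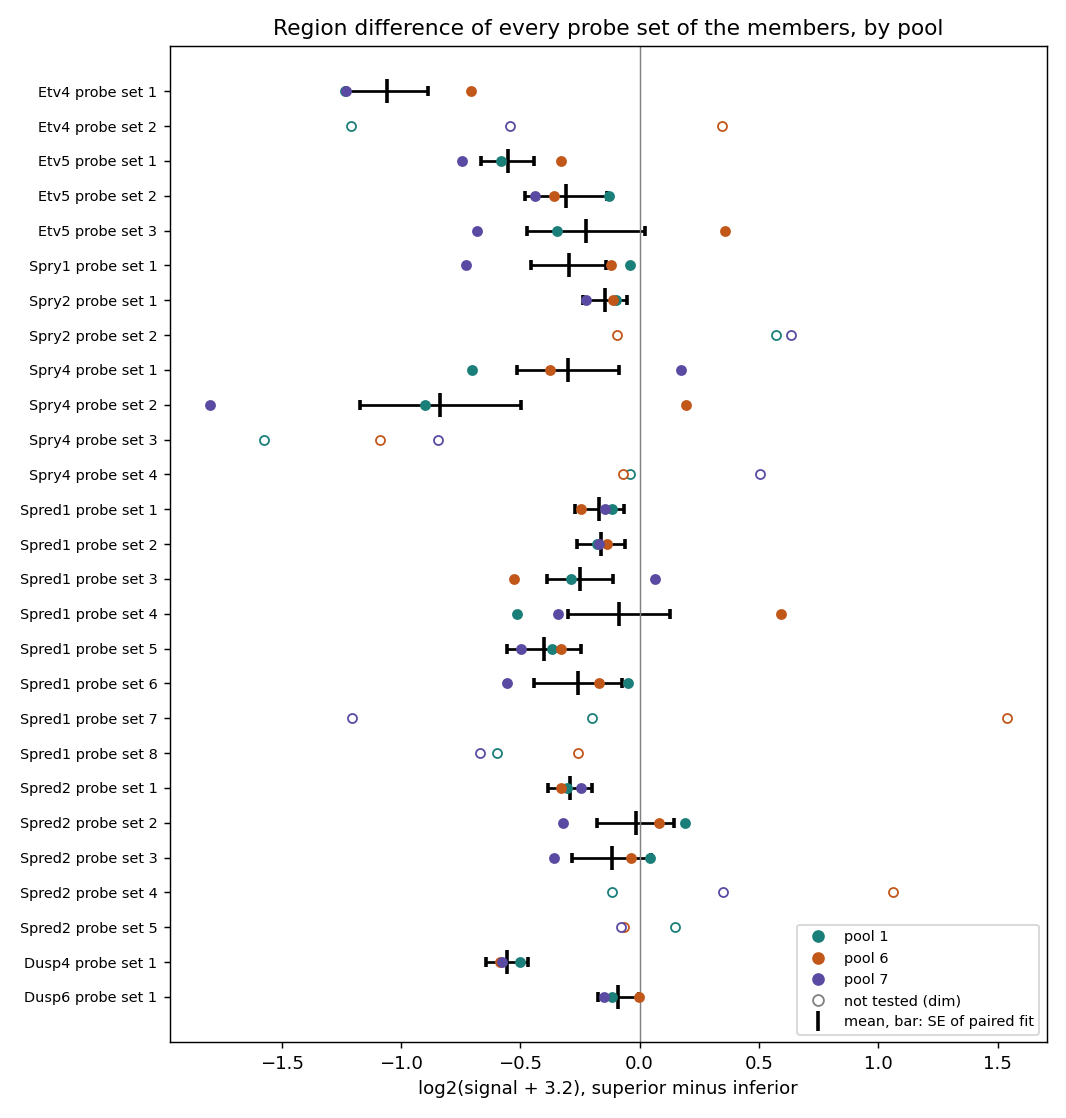
Difference of log2(signal + 3.2), superior minus inferior (horizontal axis), for the 27 member probe sets, numbered within each gene from the brightest. Coloured points are pools 1, 6 and 7, black ticks with bars are the mean and its SE in the paired fit, and open points are the 8 probe sets too dim to be tested. The 19 ticks lie below 0, and the open points scatter to both sides.

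The 8 untested probe sets, 3 of which were not above background on any array, did not share the direction. On the log2(signal + 3.2) scale 3 had a lower and 5 a higher mean in superior pools, and on the linear scale 1 of the 5, a Spred1 probe set, was lower (6.07 against 7.07) and another, of Spred2, was equal (0.767 in both). Their highest signal was 23.2.

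Among the members, the pools differed as well as the regions. In 11 of the 19 tested, the range of the 3 pool means was larger than the region difference. A range over 3 means tends to be larger than a difference of 2 means. The share over all probe sets was not taken, so whether the count is particular to the members was not tested. The widest case was the second Etv5 probe set, 1450082_s_at, at 8.8 and 9.9 in superior and inferior pool 1, 36.0 and 47.1 in pool 6, and 44.8 and 61.8 in pool 7. Its pool range was 2.16 on the log2 scale, against a region difference of 0.31 in size. The second Spred2 probe set had 22.0 and 18.9 in pool 1 against 55.9 to 70.7 in the others. Both are low in pool 1, whereas the brightest probe sets of the same genes are not. Beside this, pool 1 had a lower ratio of the 5' to the 3' probe set of Gapdh, 0.769 and 0.452 in superior and inferior against 1.11 to 1.20 on the other arrays, and a lower mean signal for 18S ribosomal RNA, 77.6 and 67.8 against 438.7 to 690.3. The part of these values in the pool differences was not tested. In the other 8, among them Etv4, Dusp4, Spry1 and the brightest probe sets of Etv5 and Spred2, the region difference was the larger of the 2 quantities.

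**Figure D3:**
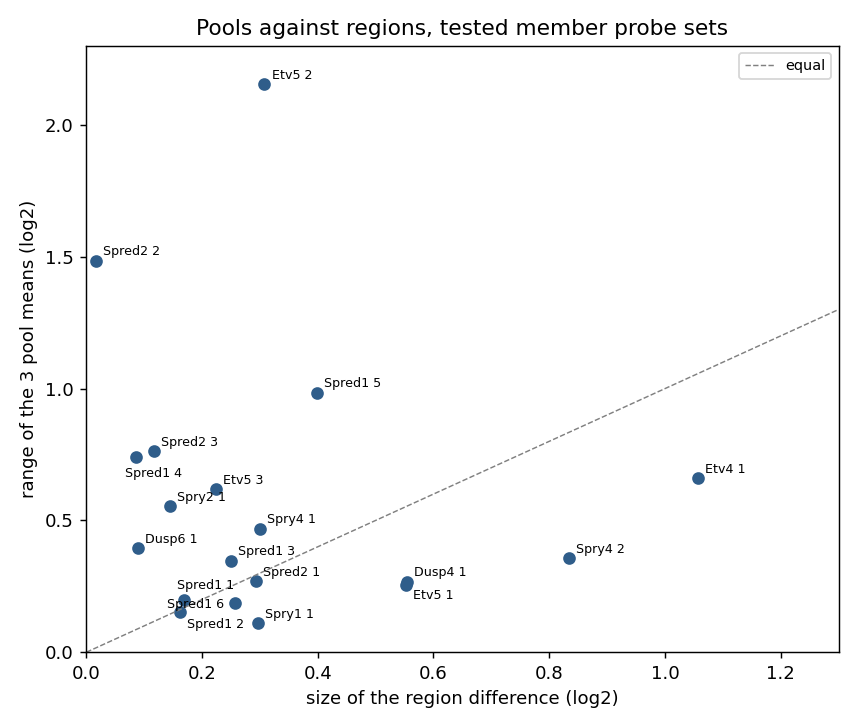
Size of the region difference (horizontal axis, log2) against the range of the 3 pool means (vertical axis, log2) for the 19 tested member probe sets, numbered as before. Points above the dashed line, 11 of 19, have a pool range larger than their region difference, up to 2.16 for Etv5 2, while Etv4 1, Spry4 2, Dusp4 1 and Etv5 1 lie well below it.

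The genes whose profile over the 6 arrays lay nearest to the members' mean profile were Brat1, Zfp950, Agpat4, Asb1 and Hmcn1. Likeness was the root mean square distance between centred log2 values, which was 0.04 for Brat1 and 0.05 for Hmcn1. The members' own distances from their mean ran from 0.10 for Spred2 and 0.14 for Dusp4 and Etv5 to 0.47 for Etv4, the member least like the mean. Among 11195 genes and with 6 arrays, close profiles occur readily, and none of the 5 passed the paired test.

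FGF ligands and receptors were described from a list of 29 genes, of which 20 were too dim to be tested. The list was made by family name. Not every gene in it, for example Fgf12 and Fgf13, encodes a classical secreted ligand or a receptor. Over all 29, 15 had a lower mean in superior pools, or 51.7%, against 51.6% of 18193 genes, with a median of -0.045 on the log2 scale. The 9 tested genes all had a lower mean (median -0.30), and 0 were called in the paired or the unpaired fit, where 0.241% of genes were called with pairing. At an unadjusted p threshold of 0.05 the paired fit passed 5 of the 9 as lower, against 5.33% of genes, and the unpaired fit 2, against 1.58%. One of the 5, Fgf12, was bright enough to be tested only through its inferior arrays (superior 13.1, 13.9 and 18.0, inferior 46.7, 18.3 and 21.3), which leaves 4 of 8 in the paired fit. Fgf8, a second heart field ligand that the growing outflow tract requires, measured 17.9, 11.5 and 25.6 in superior and 44.3, 23.4 and 57.2 in inferior pools. Its differences within pools were -1.17, -0.86 and -1.07, and those of Etv4 in the same pools -1.23, -0.71 and -1.23. Likeness between Fgf8 and Etv4 was not tested. The signals of Fgf8 were low and its regions overlapped across pools (paired limma adjusted p = 0.0932, 0.9999 without pairing). The log2 difference was -0.45 for the receptor gene Fgfr3 and for the ligand gene Fgf1, and -0.30 for the receptor gene Fgfr2, with paired limma adjusted p of 0.322, 0.389 and 0.399.

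The kinases and adaptors between receptor and readout showed much smaller differences. Of 24 listed genes of the ERK cascade 17 were tested, with a median log2 difference of -0.05, 14 lower and 3 higher, where 50.8% of genes were lower. Without pool 6, 9 were lower and the median was -0.0080, and without pool 1 it was -0.10. In both fits 0 were called and 0 passed an unadjusted p threshold of 0.05, and 0 were lower in every pool, against 17.1% of genes. The smallest p belonged to the RAS exchange factor gene Sos2 (-0.26 ± 0.12, paired limma adjusted p = 0.480) and the RAS GTPase-activating gene Rasa1 (-0.21 ± 0.10, 0.484). They were followed by the kinase gene Rps6ka3 (-0.15 ± 0.10) and Sos1 (-0.13 ± 0.11). Each of the 4 had at least 1 pool on the other side.

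A further 34 genes known to respond to ERK, or to restrain it, were less uniform. Of 29 tested, 20 were lower and 9 higher in superior pools, with a median of -0.08, and 0 were called in either fit. The median was -0.024 under quantile normalization and under cyclic loess, with 17 lower, and -0.15 in the top 25% of probe sets by signal. The paired fit passed 5 as lower and 2 as higher at an unadjusted p threshold of 0.05, against 5.33% and 6.08% of genes, and the unpaired fit passed 2 as lower, against 1.58%. Phlda1, a pleckstrin domain gene induced by FGF, had signals of 731.2, 659.0 and 681.0 in superior and 1087.0, 861.5 and 880.7 in inferior pools, with no overlap (log2 -0.44 ± 0.09, paired limma adjusted p = 0.144). Il17rd, a membrane inhibitor of FGF signalling also known as Sef, had 103.8, 110.0 and 138.2 against 141.5, 154.9 and 184.4 (-0.44 ± 0.10, 0.236). Within each pool it was lower in superior. The phosphatase gene Dusp9 gave -0.37 ± 0.14 (0.410). Mycn, a transcription factor of proliferating progenitors, ran the other way, with a difference of 0.41 ± 0.09 (0.219) and all 3 pools higher in superior. Without pool 6, the paired fit called 2 genes of this list and 1 ligand or receptor gene, where it called 1.25% of genes.

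**Figure D4:**
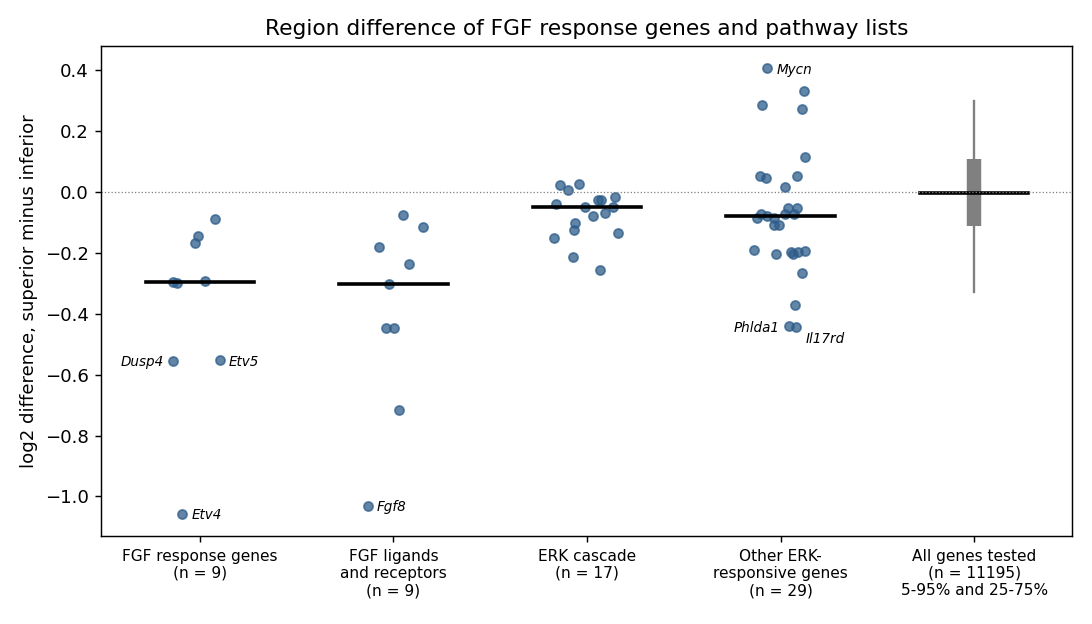
Log2 difference, superior minus inferior (vertical axis), of the brightest tested probe set of each gene in 4 lists, with medians as black bars. The grey bar at the right spans the 25th to 75th percentile of 11195 genes, -0.112 to 0.110, and its thin line the 5th to 95th, -0.328 to 0.300. Of the FGF response genes, Etv4, Etv5 and Dusp4 lie below that line, and the ERK cascade genes lie between -0.26 and 0.03.

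Markers of the tissue were checked beside these values. All 12 heart muscle markers were bright enough to be tested, with summed signals of 38490 to 44540 in superior and 35180 to 35860 in inferior pools, and 9 of them had a higher mean in superior (median log2 0.21). Smooth muscle markers were higher in 3 of 4 tested (median 0.13, sum 9115 to 11130 against 8478 to 9131) and red cell markers in 4 of 5 (median 0.21, sum 13890 to 22650 against 12510 to 15698, Hba-a1 not above background). Of 10 tested markers of the anterior second heart field 7 were lower in superior pools (median log2 -0.16, summed signal 3372 to 3974 against 3641 to 4493). The epicardial markers ran the other way, with 8 of 8 tested higher (median 1.07, sum 1125 to 1931 against 699.4 to 952.8, Msln not above background). The paired fit called 4 of these 8, named here after their values were seen: Tbx18 rose by 1.86 ± 0.12 on the log2 scale (limma adjusted p = 0.00260), and Upk1b (1.84, 0.0411), Aldh1a2 (1.50, 0.0411) and Tcf21 (0.69, 0.0479) were called too, against 0.241% of genes. Without pairing their adjusted p was 0.9999, and the paired fit called 0 markers of the other cell types listed. Neural crest markers were lower in 5 of 6 (median -0.43, sum 434.9 to 652.4 against 631.0 to 885.0, with Foxd3 and Tfap2b not above background). Cushion mesenchyme markers were lower in 7 of 9 (median -0.12, sum 6912 to 10240 against 6677 to 9467). Those of endothelium and endocardium were higher in 7 of 10 (median 0.03, sum 2138 to 2720 against 2100 to 2723). The part of these cell types in the values of the FGF response genes was not tested. Of the 11 measured markers of pharyngeal endoderm and surface ectoderm, tissues that also respond to FGF, 3 were tested, 1 lower and 2 higher (median 0.01). The summed signal of the 11 was 96.5 to 150.5 in superior and 72.2 to 181.6 in inferior pools, with Foxa1, Pax1 and Pax9 not above background. The median hides opposite pools. Epcam, Cdh1 and Cldn6, the 3 tested, were higher in superior in pool 6 (log2 0.722, 1.044 and 0.917). In pool 7 they were lower (-1.525, -1.424 and -0.863), and in pool 1 they were at -0.029, 0.516 and -0.0098. The part of this in the FGF response genes was not tested.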

How the data were processed

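Total RNA of 3 superior and 3 inferior pools was hybridised to arrays, per the labels. The authors deposited MAS5 signals, a linear intensity per probe set, as named in the submitters' processing notes (version not given in the sources used here). With 2% trimmed at either end, every array averages 100. The arrays give no depth, and their number limits the precision. Of 45101 probe sets, 64 controls were left out.

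Signals were used as log2(signal + 3.2), the offset being the 25th percentile of all signals, so fold changes understate dim genes. The test took in probe sets with an average log2 value above the median, a signal of about 15.1. Limma 3.58.1 in R 4.3.3 (lmFit, eBayes with trend and robust variance, Benjamini-Hochberg adjustment, threshold 0.05) fitted region with the pool number as a block, because the comparison asked for is paired. Same-numbered arrays of the regions deviated together (correlations over probe sets 0.79, 0.43 and 0.51). Arrays of pools 6 and 7 with unlike numbers gave 0.18 and 0.20, so this check alone does not show that the numbers pair the arrays, which the labels do not state. The paired fit leaves 2 residual degrees of freedom, so its errors rest on variance shared across probe sets.

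The brightest tested probe set stood for a gene. Text names all members, the 4 genes of smallest paired p in each pathway list and the 5 genes nearest in profile. Members and lists were chosen with earlier results of these data known. Probe sets were named from the platform annotation (34945 with 1 gene, 932 with several, 9160 unnamed here), and upstream sequence came from RefSeq, GRCm38.p6.

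Alternatives were the fit without the pool block, offsets of 1 and 16, no filter or the top 25% of probe sets, 3 other scalings, plain eBayes, the mean over probe sets, and each pool left out.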

Additional observations from a re-analysis of the deposited data

How the results depend on the processing

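The region differences of the 9 member genes kept a negative sign in 114 of 114 values from 13 alternative settings, and 3 of 105 tested values passed the threshold, all of them without pool 6. Many of these signs are no check of direction. Dropping the block, changing the filter or using plain eBayes left each difference as it was. So did averaging the probe sets of a gene with only 1 tested. With each pool left out in turn, Etv4 ranged from -1.23 to -0.97, Etv5 from -0.66 to -0.46 and Dusp4 from -0.58 to -0.54. Without pool 6, 3 member probe sets were called there, along with 1 gene of the ligands and receptors and 2 of the other ERK-responsive genes. Leaving out each pool in turn gave between 0 and 3 member probe sets called, between 9 and 231 probe sets in all, a members' median of -0.32 to -0.27 and a ligand and receptor median of -0.34 to -0.25. Without the pool block, that is without pairing, 0 of 22518 probe sets were called and 0 members, and the block changed no other call of a member. The count of all probe sets called, 36 in the paired fit, came to 22 at offset 1, to 1 without the filter, to 2 in the top 25% by signal and to 0 with plain eBayes, and it stayed at 37 or 38 under the other scalings and an offset of 16. The cause of these shifts was not tested.

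The members' median of -0.30 was -0.23 in the top 25% by signal, where fewer genes are tested, and -0.25 under cyclic loess. With 1 array left out and no block, alternatives added after the data were seen, it ranged from -0.36 without inferior 6 or superior 1 to -0.21 without superior 6, whose hybridisation controls were 1.64 times those of the median array. The median of ligands and receptors was -0.24 in the top 25% and -0.045 without the filter. Spred2 was at -0.14 with its probe sets averaged. No scaling moved the median of all genes by over 0.1. Of the 8 untested member probe sets 3 stayed under the background of 8.0 on every array.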
